A study of Mus musculus with 27 samples.

Results

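The tRNAs of glycine, proline, serine, threonine, cysteine, selenocysteine, tyrosine, phenylalanine and tryptophan carry the small, hydroxyl, sulfur and aromatic amino acids to the ribosome. All entries of the deposited small RNA table with the class tRNA and a name that begins with one of these 9 amino acids were taken, which gave 61 of the 193 tRNA entries and of 1013 entries in all. They carry 13 anticodons. Glycine had 22 entries, serine 12, proline 8, cysteine 8, tyrosine 6, threonine 2, tryptophan 2 and selenocysteine 1, and no phenylalanine entry was analysed here. An entry is a gene copy, and its name gives the amino acid, the anticodon, a set number shared by genes of the same mature sequence, and a copy number, so that tRNA-Gly-GCC-2-6 is copy 6 of set 2.

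The study sequenced small RNA of 3 mouse cell types, each split into chromatin, nucleoplasm and cytoplasm. The cells called mESC are the E14 embryonic stem cell line, grown on gelatin with LIF. The mNPC cells are neural progenitors, a line made by the depositors, kept in DMEM/F12 with B27 and with EGF and FGF added daily at 10 ng/ml. The mCtx cells are primary cortical neurons after 5 days in culture. The labels name no mutation or drug for any group, and each line stands for 1 line only. Each of the 9 combinations had 3 libraries, 27 in all, called biological replicates in the labels. Whether each replicate is its own culture is not said, and the spread behind every p-value may thus be technical. RNA under 200 nt, depleted of rRNA, was sequenced.

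A tRNA is transcribed by RNA polymerase III in the nucleus, trimmed at both ends, given a 3′ CCA tail and modified bases, and exported to the cytoplasm to be charged with its amino acid. Tyrosine tRNA genes carry an intron that is removed from the precursor. Cells also cut tRNAs into fragments, and glycine tRNAs are known as an abundant source of such pieces in mouse small RNA. Base modifications and the tight fold of a tRNA hinder reverse transcription in ordinary small RNA libraries. The values therefore do not tell a full tRNA from a precursor or a piece of it.

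These 3 serine genes show how alike members with different anticodons can be, and they are the ones whose sequence the annotation held, from GENCODE M21 on GRCm38. The anticodon, bases 34 to 36 counted from 1 at the 5′ end, is in capitals.
tRNA-Ser-AGA-2-1: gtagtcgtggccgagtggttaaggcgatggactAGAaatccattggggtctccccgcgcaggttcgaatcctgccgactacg
tRNA-Ser-TGA-2-1: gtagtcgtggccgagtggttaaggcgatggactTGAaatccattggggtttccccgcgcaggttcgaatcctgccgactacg
tRNA-Ser-TGA-2-2: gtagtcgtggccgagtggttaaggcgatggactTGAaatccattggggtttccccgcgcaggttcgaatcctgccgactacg
The AGA gene lies at chr4:10874064-10874145 on the plus strand, and the TGA genes at chr13:21924935-21925016 on the minus strand and chr13:23518146-23518227 on the plus strand. The TGA copies had the same 82 bases. The AGA and TGA genes shared 80 of 82 bases, 97.6%, and differed by A34T in the anticodon and C50T outside it. A short read that covers neither position cannot be assigned to either gene.

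Copies of a set had nearly equal values, and how the authors divided reads that match several copies is not known here. The 10 copies of tRNA-Gly-GCC in sets 2 to 4 had values whose highest exceeded their lowest by a median factor of 1.02 over the 27 libraries, and the 3 copies of set 1 were identical in every library. The 7 copies of tRNA-Ser-AGA had a median factor of 1.12 in the 5 libraries that listed them. Copies were summed by anticodon before testing. Of the 61 entries, 57 overlapped a RefSeq tRNA gene, and 46 lay outside every GENCODE gene; several of the rest lay in introns, such as tRNA-Gly-GCC-2-3 on the same strand as Trim2, tRNA-Gly-GCC-2-4 on the strand opposite to Vac14, and tRNA-Tyr-GTA-6-1 on the same strand as Myo3a.

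The authors' unit is RPM, which sets each library to a total of 1000000 reads, so each is a share of a library and not an amount per cell. In such bulk samples, fewer cells of a type and less RNA per cell cannot be told apart. The entries of a library summed to between 73.9% and 97.4% of that total. The lowest value above 0 in a library lay between 5.16 and 59.1 RPM, and smaller values appear as 0, so a 0 is not read as absence. Cell identity was checked with miRNAs: the 16 stem cell miRNA entries summed to between 19861 and 93870 RPM in mESC libraries and 0 in all mNPC and mCtx libraries, where the 21 neural entries summed to between 35189.7 and 156105 RPM. In mESC the neural entries summed to between 52.0 and 1706 RPM and the 3 microglial and blood entries to at most 1876 RPM. In mNPC and mCtx the 3 glial entries summed to at most 288 RPM and the microglial and blood entries to at most 44.5 RPM, while the 8 endothelial and mesenchymal entries took 949 to 7594 RPM of mESC libraries, 112 to 345 RPM of mNPC libraries and 2192 to 4099 RPM of mCtx libraries. Their part in the results below was not tested. The 82 small nucleolar and related entries that mark nuclei took between 119946 and 263083 RPM in chromatin, between 6644 and 33371 RPM in nucleoplasm, and between 248 and 3348 RPM in cytoplasm.

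**Figure D1:**
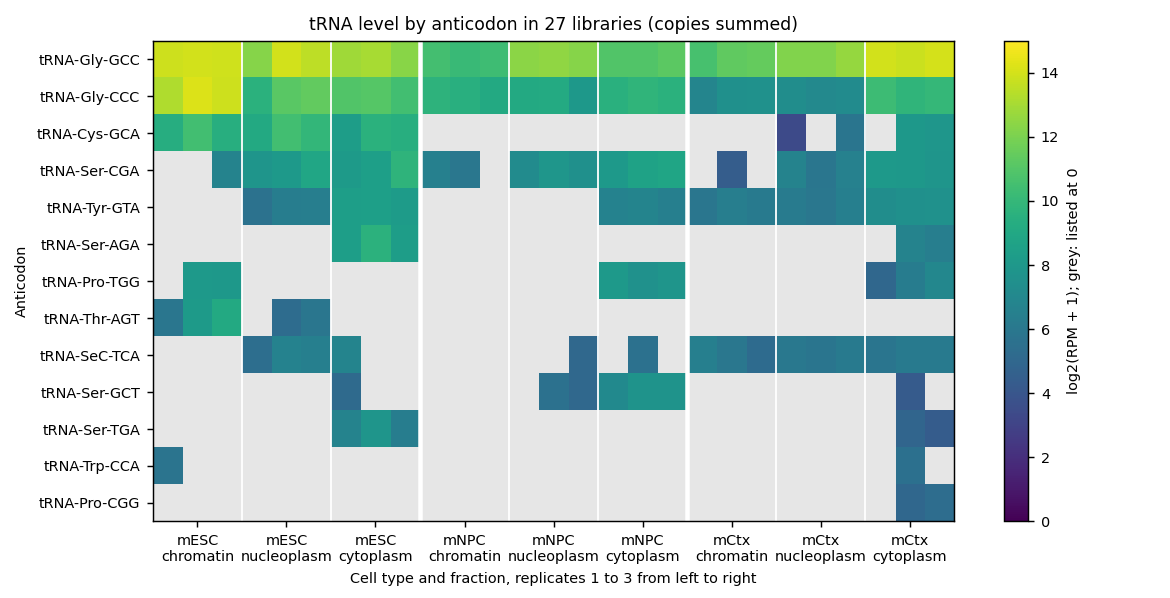
Level of each of the 13 anticodons (rows, ordered by mean) in the 27 libraries (columns), as log2(RPM + 1) with the gene copies summed; grey marks values listed as 0. The glycine rows are filled in all 27 libraries, and every other row has grey cells.

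Glycine dominated the reads of these tRNAs. Its anticodons GCC and CCC held between 74.6% and 100% of the RPM summed over the 61 entries of a library, without correction for length. Both were above 0 in all 27 libraries, tRNA-Ser-CGA in 22, tRNA-Tyr-GTA in 18, tRNA-SeC-TCA in 15 and tRNA-Cys-GCA in 13. tRNA-Pro-TGG was listed in 8 libraries, tRNA-Ser-GCT in 7, and tRNA-Ser-AGA, tRNA-Ser-TGA and tRNA-Thr-AGT in 5 each. tRNA-Pro-CGG and tRNA-Trp-CCA were above 0 in 2 libraries each and were not tested, which left 11 of 13 anticodons. The 61 entries together made up 25.9 ± 7.77% of all tRNA-class RPM in mESC chromatin, and 10.7 ± 3.3% in mESC cytoplasm (SD, n = 3). In mCtx they were 13.2 ± 2.2% in chromatin, 25.1 ± 4.13% in nucleoplasm and 16.1 ± 1.6% in cytoplasm.

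The first comparison asked where in the cell these tRNAs were found, with chromatin set against cytoplasm. In mESC the called anticodons went in both directions. tRNA-Gly-GCC, tRNA-Gly-CCC, tRNA-Thr-AGT and tRNA-Pro-TGG were higher in chromatin, and tRNA-Tyr-GTA and the serine anticodons AGA, TGA and CGA were lower. In mCtx all 8 called anticodons were lower in chromatin, glycine included. In mNPC all 4 called anticodons were lower. By limma on log2(RPM + 1) with Benjamini-Hochberg adjustment over the 729 features tested, and calls at an adjusted p under 0.05, 8 of 11 anticodons passed in mESC, where 57.1% (26.3% higher, 30.7% lower) of all features passed. In mNPC 4 passed, against 38.0% (21.8% higher, 16.2% lower) of features, and in mCtx 8, against 39.9% (22.4% higher, 17.6% lower). The median log2 difference over the 11 was -1.73 in mESC, -0.70 in mNPC and -2.80 in mCtx, and over all features 0 in each. These medians hold anticodons with libraries at 0, whose differences depend on the pseudocount; with every value under 59.1 RPM raised to that value they were 0 in mESC, -0.23 in mNPC and -0.47 in mCtx. Here and below the values raised were sums over copies, and a 0 over several copies can hide more than 59.1 RPM. Among the 26 tested anticodons of other amino acids, chromatin was higher for 4 and lower for 10 in mESC. It was higher for 2 and lower for 9 in mNPC, and higher for 1 and lower for 16 in mCtx. When each library was scaled to its tRNA total, the median feature of mCtx moved by 1.27 on the log2 scale and the split of the members there became 1 higher and 5 lower, against 0 and 8.

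The second comparison set nucleoplasm against cytoplasm. Fewer anticodons differed in mESC and mNPC, and most that did were lower in the nucleoplasm, with tRNA-Gly-GCC of mNPC and tRNA-Thr-AGT of mESC as the exceptions. The count was 4 in mESC (1 higher, 3 lower), where 19.5% (16.2% higher, 3.29% lower) of features passed, 3 in mNPC (1 higher, 2 lower), against 13.2% (8.92% higher, 4.25% lower), and 6 in mCtx, all lower, against 19.9% (14.8% higher, 5.08% lower). The median over the 11 was -0.10 in mESC, -0.17 in mNPC and -1.65 in mCtx, beside 0.01, 0 and 0 over all features. With values raised to 59.1 RPM the medians of the 11 were 0 in mESC, 0 in mNPC and -0.47 in mCtx. Scaling to the tRNA total moved the median feature of mCtx by 1.94 and turned the split of the members from 0 higher and 6 lower into 2 higher and 3 lower. Of 8 tested entries of 5S rRNA, another polymerase III product, 1 was higher and 2 were lower in mESC, and 2 were lower in mNPC.

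**Figure D2:**
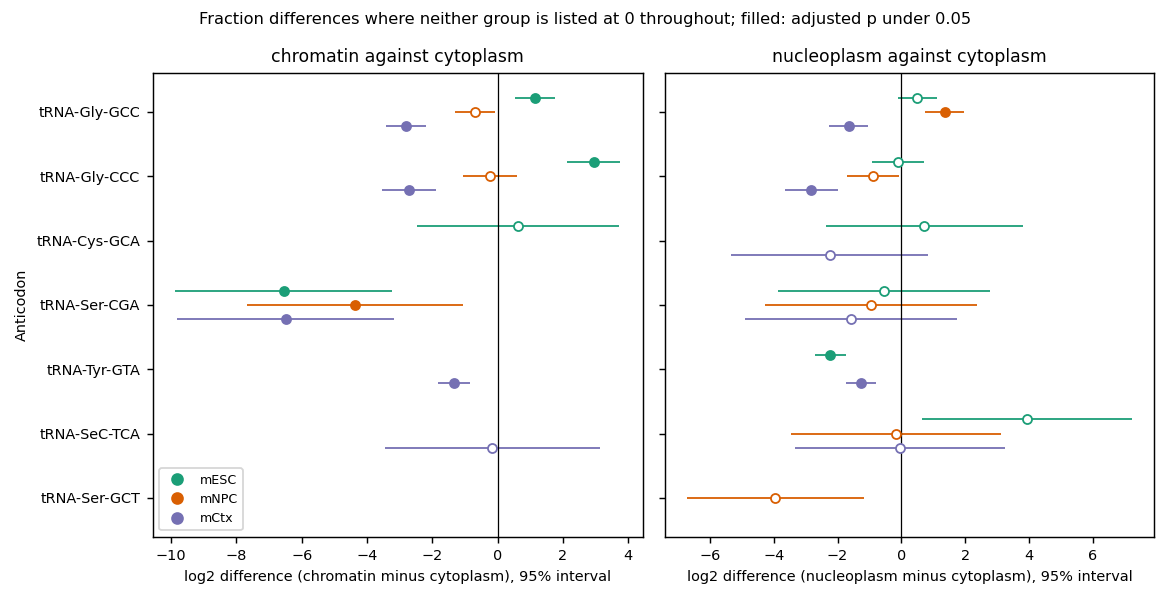
Difference of chromatin (left) and nucleoplasm (right) from cytoplasm for each anticodon in 3 cell types, as log2 difference with 95% interval; filled points have an adjusted p under 0.05, and anticodons at 0 in all libraries of either group are not drawn. Points of groups with some libraries at 0, such as tRNA-Ser-CGA in chromatin, depend on the pseudocount. The glycine points of mESC chromatin lie right of 0, at 1.15 and 2.94, and those of mCtx left of 0, at -2.80 and -2.72.

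tRNA-Gly-GCC, which reads the GGC and GGU codons, had the most reads of any member. In mESC it had 14685, 15778 and 15548 RPM in chromatin, 5031, 15786 and 11814 RPM in nucleoplasm and 7453, 8501 and 5218 RPM in cytoplasm. The chromatin libraries lay above all cytoplasm libraries, and the nucleoplasm libraries spread across both. In mCtx the order was the opposite, with 1620.5, 2593 and 2761 RPM in chromatin, 4541, 4486 and 6294 RPM in nucleoplasm and 15887, 14478 and 17072 RPM in cytoplasm. No library of one mCtx fraction overlapped another. In mNPC the nucleoplasm stood out, with 5464, 5735 and 4911 RPM, while chromatin had 1443, 1156 and 1304 RPM and cytoplasm 1957, 1956 and 2425 RPM.

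Chromatin was higher than cytoplasm in mESC (log2 difference 1.15, SE 0.29, adjusted p = 0.00204) and lower in mCtx (log2 difference -2.80, SE 0.29, adjusted p = 1.18e-07; -0.31, adjusted p = 0.359 when scaled to the tRNA total). In mNPC the difference was -0.70 and missed the threshold (adjusted p = 0.0701). The difference between chromatin and cytoplasm itself differed between mNPC and mESC (log2 difference -1.85, SE 0.41, adjusted p = 0.00159), and between mCtx and mNPC (log2 difference -2.10, SE 0.41, adjusted p = 0.000969; -0.18, adjusted p = 0.857 when scaled to the tRNA total). Nucleoplasm was higher than cytoplasm in mNPC (log2 difference 1.35, SE 0.29, adjusted p = 0.00234). In mCtx it was lower as a share of all reads (log2 difference -1.65, SE 0.29, adjusted p = 0.000285) but higher as a share of tRNA reads (0.69, adjusted p = 0.0339).

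tRNA-Gly-CCC, which reads the GGG codon, had 9398, 18702 and 15100.1 RPM in mESC chromatin, 755, 2328 and 2718 RPM in mESC nucleoplasm and 1965, 2149 and 1388 RPM in mESC cytoplasm. In mNPC it had 832, 706 and 541 RPM in chromatin, 542, 567 and 258 RPM in nucleoplasm and 743, 887 and 772 RPM in cytoplasm. In mCtx it had 113, 184 and 189.6 RPM in chromatin, 162, 133 and 150.2 RPM in nucleoplasm and 1257, 905 and 1015 RPM in cytoplasm. All 3 mESC chromatin libraries exceeded every other library of the series, and the mCtx cytoplasm libraries exceeded all nuclear libraries of mCtx.

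Chromatin was higher than cytoplasm for tRNA-Gly-CCC in mESC (log2 difference 2.94, SE 0.39, adjusted p = 1.78e-06) and lower in mCtx (log2 difference -2.72, SE 0.39, adjusted p = 8.16e-06), and nucleoplasm was lower in mCtx (log2 difference -2.82, SE 0.39, adjusted p = 1.43e-05). As a share of tRNA reads the mCtx differences were not called (-0.24, adjusted p = 0.742 for chromatin and -0.49, adjusted p = 0.337 for nucleoplasm). The chromatin to cytoplasm difference differed between mNPC and mESC (log2 difference -3.17, SE 0.55, adjusted p = 0.000161), and between mCtx and mNPC (log2 difference -2.50, SE 0.55, adjusted p = 0.00291; -0.58, adjusted p = 0.485 scaled to the tRNA total). In mESC chromatin the GCC anticodon had 1.15 ± 0.373 times the reads of the CCC anticodon, against 3.84 ± 0.105 times in mESC cytoplasm (SD, n = 3).

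**Figure D3:**
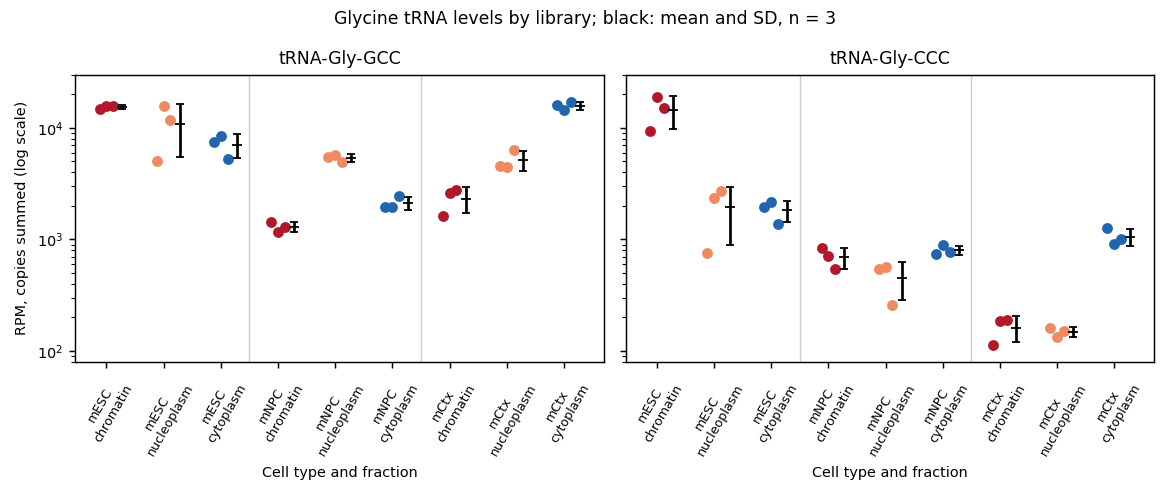
RPM of tRNA-Gly-GCC (left) and tRNA-Gly-CCC (right) in each library on a log axis, by cell type and fraction, with the mean and SD of each group in black (n = 3). By mean, both anticodons are highest in chromatin among the mESC fractions and highest in cytoplasm among the mCtx fractions.

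Which glycine genes the reads were assigned to also varied with the cell type. In mESC, sets 3 and 4 of tRNA-Gly-CCC (tRNA-Gly-CCC-3-1 at chr3:96424033-96424103 on the minus strand and tRNA-Gly-CCC-4-1 at chr4:32230250-32230320 on the plus strand, both intergenic) held 91.9% to 100.0% of that anticodon's RPM, against 13.7% to 33.6% in mNPC and 29.4% to 53.1% in mCtx. Set 2, with copies at chr3:96351167-96351237 on the minus strand and chr3:96382911-96382981 on the plus strand, in introns of long noncoding RNA genes, held 0% to 2.44% of it in mESC libraries. Its share was 66.4% to 86.3% in mNPC libraries and 46.9% to 69.3% in mCtx libraries. No mESC library overlapped a library of the other cells in either share.

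Tested entry by entry, tRNA-Gly-CCC-2-1 had 293.1, 353 and 289 RPM in mNPC cytoplasm and was listed at 0 in all mESC cytoplasm libraries (adjusted p = 3.78e-05). In chromatin it had 296, 249.7 and 179.7 RPM in mNPC, against 0, 0 and 161 RPM in mESC (adjusted p = 0.00258), and in nucleoplasm it was also higher in mNPC (adjusted p = 0.00144). In the same comparison tRNA-Gly-CCC-4-1 was lower, with 116, 102 and 90.1 RPM in mNPC chromatin, against 4548, 9190.3 and 7312 RPM in mESC chromatin (log2 difference -6.03, SE 0.39, adjusted p = 2.62e-11). The copies thus went in opposite directions in all 3 fractions, since tRNA-Gly-CCC-4-1 was also lower in mNPC nucleoplasm (log2 difference -3.98, SE 0.39, adjusted p = 2.22e-08) and cytoplasm (log2 difference -3.31, SE 0.39, adjusted p = 3.64e-07). tRNA-Gly-CCC-3-1, the copy with the highest mean, was lower in mNPC too, with adjusted p = 2.06e-05 in chromatin, 3.07e-05 in nucleoplasm and 0.00867 in cytoplasm. The percentage of all 851 tested entries called in this comparison was 44.9% in chromatin, 48.6% in nucleoplasm and 41.6% in cytoplasm.

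Set 1 of tRNA-Gly-GCC was 3 copies in a run at chr1:171066631-171066701, chr1:171074302-171074372 and chr1:171081876-171081946, all on the plus strand. Its share was likewise largest in mESC. The set held 25.9% to 41.1% of the anticodon's RPM in mESC libraries. In mNPC it held 11.9 ± 0.623% in nucleoplasm and was listed at 0 in chromatin and cytoplasm. In mCtx it was listed at 0 in chromatin and held 2.68 ± 0.677% in nucleoplasm and 7.3 ± 1.57% in cytoplasm (SD, n = 3). By reads the set had 1434, 863 and 1181 RPM in mCtx cytoplasm, against 3066, 2409 and 1466 RPM in mESC cytoplasm. With 3 copies, a 0 could hide up to 177 RPM in mNPC chromatin, 122 RPM in mNPC cytoplasm and 75.3 RPM in mCtx chromatin. Copy tRNA-Gly-GCC-1-1 had 205, 229.7 and 205 RPM in mNPC nucleoplasm, against 615, 1565 and 1114 RPM in mESC nucleoplasm (log2 difference -2.26, SE 0.34, adjusted p = 9.2e-06). Within mNPC it was listed in the nucleoplasm and not in the cytoplasm (adjusted p = 1.37e-13).

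The copies of sets 2 to 4, which shared their values in most libraries, parted most in mNPC chromatin. There tRNA-Gly-GCC-2-6, at chr11:69118794-69118864 on the minus strand and the copy with the highest mean, had 222, 255 and 256 RPM, while tRNA-Gly-GCC-3-1 had 127.6, 93.1 and 118 RPM. In mNPC cytoplasm copy 2-6 had 197, 197 and 245 RPM and copy 3-1 had 197, 197 and 241 RPM, nearly the same. The highest factor between these 10 copies in any library was 2.87. They also parted, by less, in the chromatin of the other cells. In mCtx chromatin tRNA-Gly-GCC-4-1 had 198, 289 and 317 RPM, against 156, 246 and 261 RPM for copy 3-1. In mESC chromatin copy 4-1 had 1001, 1324 and 1355 RPM, against 1001, 1143 and 1078 RPM for copy 3-1. tRNA-Gly-GCC-5-1, at chr4:133114496-133114566 on the minus strand, was listed in mCtx only, with 95.3, 56.4 and 63.7 RPM in cytoplasm and 0, 7.74 and 10.9 RPM in nucleoplasm. The lowest listed values in mNPC nucleoplasm were 30.2 to 34.0 RPM, so nucleoplasm values of that size could not have been listed in mNPC, and the copy is not compared there. tRNA-Gly-GCC-1-1 was lower in mCtx than in mNPC nucleoplasm (log2 difference -2.25, SE 0.34, adjusted p = 1.82e-05).

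**Figure D4:**
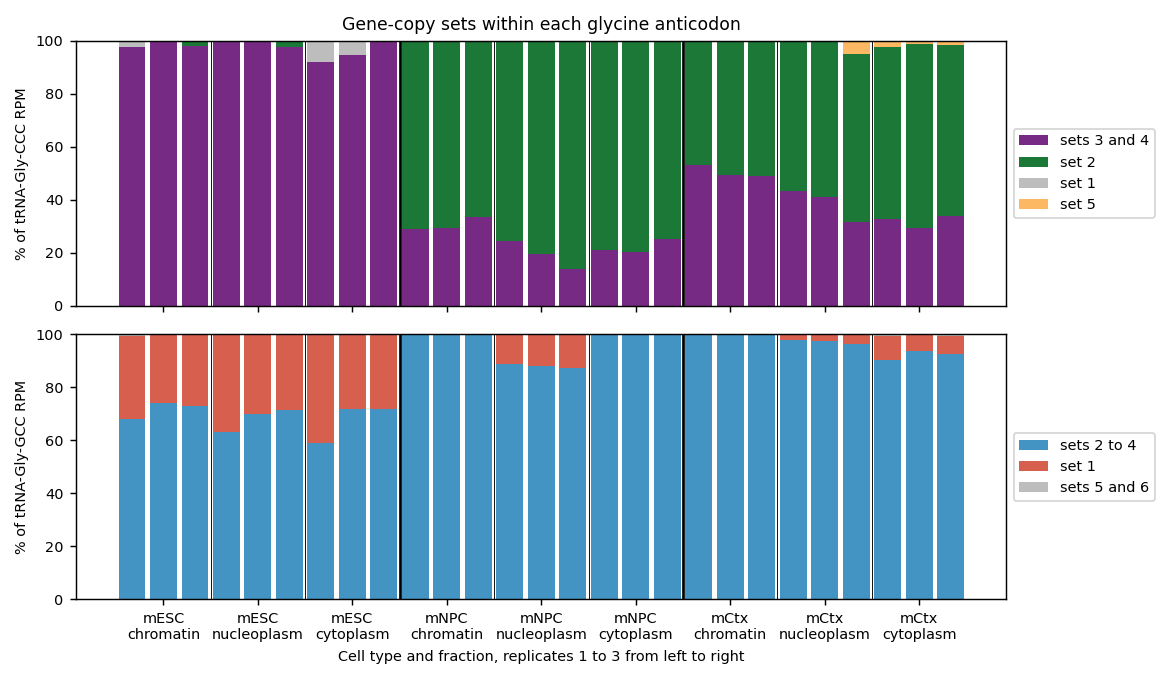
Share of each glycine anticodon's RPM held by gene sets, in percent, in the 27 libraries; the upper panel is tRNA-Gly-CCC and the lower tRNA-Gly-GCC. Sets 3 and 4 fill the mESC bars of the CCC anticodon, set 2 makes up most of the mNPC bars, and set 1 of the GCC anticodon is widest in mESC.

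Between cell types, mNPC was compared with mESC and mCtx with mNPC in each fraction. Most members that differed were lower in mNPC than in mESC, and in the cytoplasm most were then higher in mCtx than in mNPC. Neither pattern was particular to the members. Of the 26 tested anticodons of other amino acids, mNPC was higher than mESC for 0 and lower for 11 in chromatin. It was higher for 0 and lower for 11 in nucleoplasm, and higher for 1 and lower for 9 in cytoplasm. In cytoplasm mCtx was higher than mNPC for 7 and lower for 0. All tRNA-class entries together had a mean of 123609 RPM in mESC chromatin and 26893 RPM in mNPC chromatin. The count of members in mNPC against mESC was 5 in chromatin, all lower, where 43.2% (18.2% higher, 25.0% lower) of features passed. It was 7 in nucleoplasm (1 higher, 6 lower), against 48.7% (14.7% higher, 34.0% lower), and 8 in cytoplasm (2 higher, 6 lower), against 39.6% (15.5% higher, 24.1% lower). The median log2 difference of the 11 was 0, -0.87 and -1.17 in chromatin, nucleoplasm and cytoplasm, beside 0, -0.93 and 0 over all features; with values raised to 59.1 RPM the medians of the 11 were -0.05, -0.33 and -1.06. Scaled to the tRNA total, the splits were 2 higher and 3 lower in nucleoplasm and 2 higher and 3 lower in cytoplasm, with a shift of 0.93 in the median feature of nucleoplasm.

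In mCtx against mNPC, 4 members were called in chromatin (3 higher, 1 lower), where 30.3% (17.3% higher, 13.0% lower) of features passed, 4 in nucleoplasm (2 and 2), against 37.0% (26.6% higher, 10.4% lower), and 6 in cytoplasm (5 and 1), against 30.2% (18.5% higher, 11.7% lower). The median was 0, 0 and 0.87 in the same order of fractions, and 0 over all features in each; with values raised to 59.1 RPM it was 0.17 in cytoplasm. Scaled to the tRNA total, the cytoplasm split was 4 higher and 3 lower. With median-ratio scaling, the nucleoplasm split was 2 higher and 1 lower, and the median feature moved by 0.55. In nucleoplasm the count was 2 without mNPC nucleoplasm replicate 2, mCtx nucleoplasm replicate 1 or mCtx nucleoplasm replicate 3, and in the mNPC against mESC nucleoplasm it was 4 without mESC nucleoplasm replicate 2 or 3.

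Both glycine anticodons were lower in mNPC than in mESC in all 3 fractions by reads. In chromatin tRNA-Gly-GCC had 1301 ± 143.1 RPM in mNPC chromatin, against 15337 ± 576 RPM in mESC chromatin (SD, n = 3; log2 difference -3.56, SE 0.29, adjusted p = 1.56e-09; -1.37, adjusted p = 0.00012 as a share of tRNA reads). tRNA-Gly-CCC had 693 ± 146 RPM in mNPC chromatin, against 14400.1 ± 4691 RPM in mESC chromatin (log2 difference -4.34, SE 0.39, adjusted p = 6.72e-09; -2.15, adjusted p = 6.88e-05 as a share of tRNA reads). In cytoplasm tRNA-Gly-GCC was lower in mNPC by reads (log2 difference -1.72, SE 0.29, adjusted p = 4.65e-05), but not called as a share of tRNA reads (-0.32, adjusted p = 0.426). In nucleoplasm it was lower by reads (log2 difference -0.87, SE 0.29, adjusted p = 0.0176) and higher as a share of tRNA reads (1.07, adjusted p = 0.00131), and the libraries overlapped. The nucleoplasm call was lost without mESC nucleoplasm replicate 2 or 3 or mNPC nucleoplasm replicate 3, with adjusted p between 0.0563 and 0.142; the log2 difference was -0.52 without mESC nucleoplasm replicate 2.

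tRNA-Gly-CCC was lower in mNPC cytoplasm (log2 difference -1.17, SE 0.39, adjusted p = 0.02) as a share of all reads and higher by 0.22, not called, as a share of tRNA reads; the call was lost without mESC cytoplasm replicate 1 or 2 or mNPC cytoplasm replicate 1 or 3, with adjusted p between 0.0507 and 0.0742. In nucleoplasm it was lower in mNPC (log2 difference -1.97, SE 0.39, adjusted p = 0.000242; -0.03, adjusted p = 1 scaled to the tRNA total). In mCtx against mNPC, tRNA-Gly-GCC was higher in cytoplasm (log2 difference 2.91, SE 0.29, adjusted p = 7.87e-08; 1.44, adjusted p = 0.000104 as a share of tRNA reads), with all mCtx libraries above all mNPC libraries. It was also called higher in chromatin (log2 difference 0.80, SE 0.29, adjusted p = 0.0436; 1.26, adjusted p = 0.000523 as a share of tRNA reads), a call lost without mNPC chromatin replicate 1, 2 or 3 or mCtx chromatin replicate 2 or 3, with adjusted p between 0.0561 and 0.169. tRNA-Gly-CCC was lower in mCtx chromatin (log2 difference -2.10, SE 0.39, adjusted p = 0.000225) and nucleoplasm (log2 difference -1.53, SE 0.39, adjusted p = 0.0035). The nucleoplasm call was lost with median-ratio scaling (-0.69, adjusted p = 0.301). The copy with the highest mean, tRNA-Gly-CCC-3-1, tested on its own, had the opposite sign (0.97, adjusted p = 0.572). It had 59.7, 55.5 and 0 RPM in mNPC nucleoplasm, against 34.9, 27.7 and 24.0 RPM in mCtx nucleoplasm. The opposite sign rests on the mNPC library at 0, whose lowest listed value was 30.2 RPM. By mean the copy was higher in mNPC, at 38.4 against 28.9 RPM.

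Serine is served by 4 anticodons among the members. tRNA-Ser-CGA, which reads UCG and whose reads came almost only from tRNA-Ser-CGA-2-1 (chr10:128458464-128458545, minus strand, intergenic), was the serine anticodon listed in the most libraries. In cytoplasm it had 287, 348 and 864 RPM in mESC, 281, 395 and 450.9 RPM in mNPC and 270.2, 252 and 227 RPM in mCtx. In chromatin it had 0, 0 and 104 RPM in mESC, 90.9, 61.1 and 0 RPM in mNPC and 0, 20.3 and 0 RPM in mCtx, so chromatin lay under cytoplasm in each cell type with no overlap. The test called it lower in chromatin in mESC (adjusted p = 0.00132), mNPC (adjusted p = 0.0347) and mCtx (adjusted p = 0.00226).

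The mNPC call for tRNA-Ser-CGA was lost without mNPC chromatin replicate 3 or mNPC cytoplasm replicate 1, 2 or 3, with adjusted p between 0.0622 and 0.301, where leaving out chromatin replicate 3, the library at 0, moved the log2 difference to -2.29. It was also lost with median-ratio scaling (adjusted p = 0.113) and scaling to the tRNA total (adjusted p = 0.0777). The nucleoplasm lay above chromatin, with 229, 266 and 462 RPM in mESC, 150.4, 238 and 187 RPM in mNPC and 102, 58.1 and 97.0 RPM in mCtx. It overlapped cytoplasm in mESC but not in mNPC or mCtx, and missed the threshold against cytoplasm in each cell type (adjusted p between 0.654 and 1). Between cell types tRNA-Ser-CGA missed it in each fraction (adjusted p between 0.253 and 1).

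tRNA-Ser-AGA, which reads UCU, UCC and UCA once its first anticodon base is converted to inosine, and tRNA-Ser-TGA, which reads UCA, were listed in 5 cytoplasm libraries and in no chromatin or nucleoplasm library. In mESC cytoplasm tRNA-Ser-AGA had 342, 808 and 330.0 RPM and tRNA-Ser-TGA had 103, 229 and 80.9 RPM, and in mCtx cytoplasm they had 0, 102 and 84.3 RPM and 0, 28.4 and 19.4 RPM. The sequences printed above are of these genes, and single copies of both anticodons had nearly the same values: tRNA-Ser-AGA-2-1 had 45.8, 116 and 40.8 RPM and tRNA-Ser-TGA-2-1 51.3, 119 and 39.5 RPM in mESC cytoplasm. Reads shared by both genes cannot be told apart from reads of each, so the anticodons are not independent measurements. The AGA copy with the highest mean, tRNA-Ser-AGA-2-3, lies at chr13:21919215-21919296 on the plus strand, intergenic.

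Both were lower in mESC chromatin than in mESC cytoplasm (adjusted p = 3.13e-07 for AGA and 1.11e-07 for TGA), lower in mESC nucleoplasm (1.1e-06 and 3.5e-07) and lower in mNPC cytoplasm than in mESC cytoplasm (3.64e-07 and 1.17e-07). In mCtx, where cytoplasm replicate 1 was at 0 like the nuclear libraries, they passed as well, in chromatin (0.00171 and 0.00227), in nucleoplasm (0.00398 and 0.00482) and as higher than in mNPC cytoplasm (0.0021 and 0.00275). Groups at 0 throughout add no spread to the estimate that all groups share, so the p-values of these 2 anticodons can be too small. With every value under 59.1 RPM raised to that value, the mCtx calls were lost for both. If each of 7 copies lay just under a library's lowest listed value, a 0 could hide up to 384 RPM of tRNA-Ser-AGA in mESC chromatin, 189.9 RPM in mESC nucleoplasm and 284 RPM in mNPC cytoplasm. The 342 and 330.0 RPM of mESC cytoplasm lie under the first of these limits, and the mCtx cytoplasm values under the last.

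tRNA-Ser-GCT, which reads AGC and AGU, marked the mNPC cytoplasm. It had 137, 212 and 207 RPM there, against 35.8, 0 and 0 RPM in mESC cytoplasm (adjusted p = 0.00111), and 0, 18.6 and 0 RPM in mCtx cytoplasm was lower than in mNPC (adjusted p = 0.00107). It was at 0 in all chromatin libraries, which was lower than cytoplasm in mNPC (adjusted p = 9.56e-05). In nucleoplasm mNPC had 0, 47.6 and 33.2 RPM, above mESC and mCtx, both at 0 throughout (adjusted p = 0.0308 and 0.0399). Both calls were lost with every value under 59.1 RPM raised to that value. The first of them was lost without mESC nucleoplasm replicate 1, 2 or 3 or mNPC nucleoplasm replicate 2 or 3, with adjusted p between 0.0609 and 0.165, and the other without mNPC nucleoplasm replicate 2 or 3 or mCtx nucleoplasm replicate 1, 2 or 3, with adjusted p between 0.0828 and 0.207. The only copy, tRNA-Ser-GCT-2-1, lies at chr2:119046750-119046831 on the minus strand, intergenic.

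The tyrosine entries followed 2 patterns. The 5 copies of sets 1, 3 and 4, which are 88 to 93 nt long as listed and match RefSeq tRNA genes, were listed only in cytoplasm. tRNA-Tyr-GTA-3-2 and tRNA-Tyr-GTA-4-1 were above 0 in all 9 cytoplasm libraries and tRNA-Tyr-GTA-3-1 in 7. Set 1 was listed in mESC cytoplasm alone. Together the 5 copies had 341, 354 and 306 RPM in mESC, 97.6, 110.1 and 86.2 RPM in mNPC and 72.7, 81.8 and 79.2 RPM in mCtx, and 0 in all 18 chromatin and nucleoplasm libraries. The remaining entry, tRNA-Tyr-GTA-6-1, is 67 nt long, overlaps no RefSeq tRNA gene, and lies in an intron of Myo3a at chr2:22589649-22589715 on the plus strand, the strand of Myo3a. It was listed in mESC nucleoplasm, with 50.2, 82.5 and 84.6 RPM, and in every mCtx library, with 58.6, 82.9 and 72.2 RPM in chromatin, 74.0, 61.4 and 89.1 RPM in nucleoplasm and 91.2, 106 and 109 RPM in cytoplasm. It was at 0 in all mNPC libraries.

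Tested as single entries, tRNA-Tyr-GTA-4-1 was lower in chromatin than in cytoplasm in mESC (adjusted p = 9.03e-16), mNPC (adjusted p = 1.16e-14) and mCtx (adjusted p = 1.13e-13), with nucleoplasm at 0 likewise. tRNA-Tyr-GTA-6-1 went the other way in mESC, higher in nucleoplasm than in cytoplasm (adjusted p = 1.58e-14). From mNPC to mCtx cytoplasm the copies also parted: tRNA-Tyr-GTA-4-1 was lower in mCtx (log2 difference -0.70, SE 0.22, adjusted p = 0.0173) and tRNA-Tyr-GTA-6-1 was higher (adjusted p = 2.27e-15). The sum over the anticodon mixes both patterns. With 6 copies, a 0 of the sum could hide up to 329 RPM in mESC chromatin and 354 RPM in mNPC chromatin. In mNPC nucleoplasm it could hide up to 204 RPM. The 306 RPM of mESC cytoplasm replicate 3 lies under the first of these limits. Sets 1, 3 and 4 have 5 copies, so their 0 could hide up to 274 RPM in mESC chromatin. Their mESC cytoplasm values all lie above that limit. In mNPC and mCtx chromatin, their 0 could hide up to 162 and 97.0 RPM in the library with the lowest limit. Their cytoplasm values in mNPC and mCtx lie under those limits.

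As a sum, tRNA-Tyr-GTA had 58.6, 82.9 and 72.2 RPM in mCtx chromatin, against 164, 187 and 188 RPM in mCtx cytoplasm (log2 difference -1.33, SE 0.23, adjusted p = 7.5e-05; 1.13, adjusted p = 0.00168 as a share of tRNA reads). It was lower in nucleoplasm than in cytoplasm in mESC (log2 difference -2.22, SE 0.23, adjusted p = 1.73e-07), and in mCtx by reads (log2 difference -1.27, SE 0.23, adjusted p = 0.000337) but not as a share of tRNA reads (1.05, adjusted p = 0.00392). Chromatin was at 0 in mESC and mNPC, and nucleoplasm in mNPC, and each was lower than cytoplasm (adjusted p = 2.09e-17, 8.67e-16 and 4.33e-15). In cytoplasm the sum was lower in mNPC than in mESC (log2 difference -1.76, SE 0.23, adjusted p = 1.57e-06; -0.37, adjusted p = 0.382 as a share of tRNA reads) and higher in mCtx than in mNPC by reads (log2 difference 0.87, SE 0.23, adjusted p = 0.00505), but not as a share of tRNA reads (-0.59, adjusted p = 0.119). In nucleoplasm it was at 0 in mNPC, under mESC (adjusted p = 1.27e-15) and under mCtx (2.56e-15), and in chromatin mNPC was at 0, under mCtx (2.36e-15). With every value under 59.1 RPM raised to that value, these 3 calls, which rest on tRNA-Tyr-GTA-6-1, were lost.

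**Figure D5:**
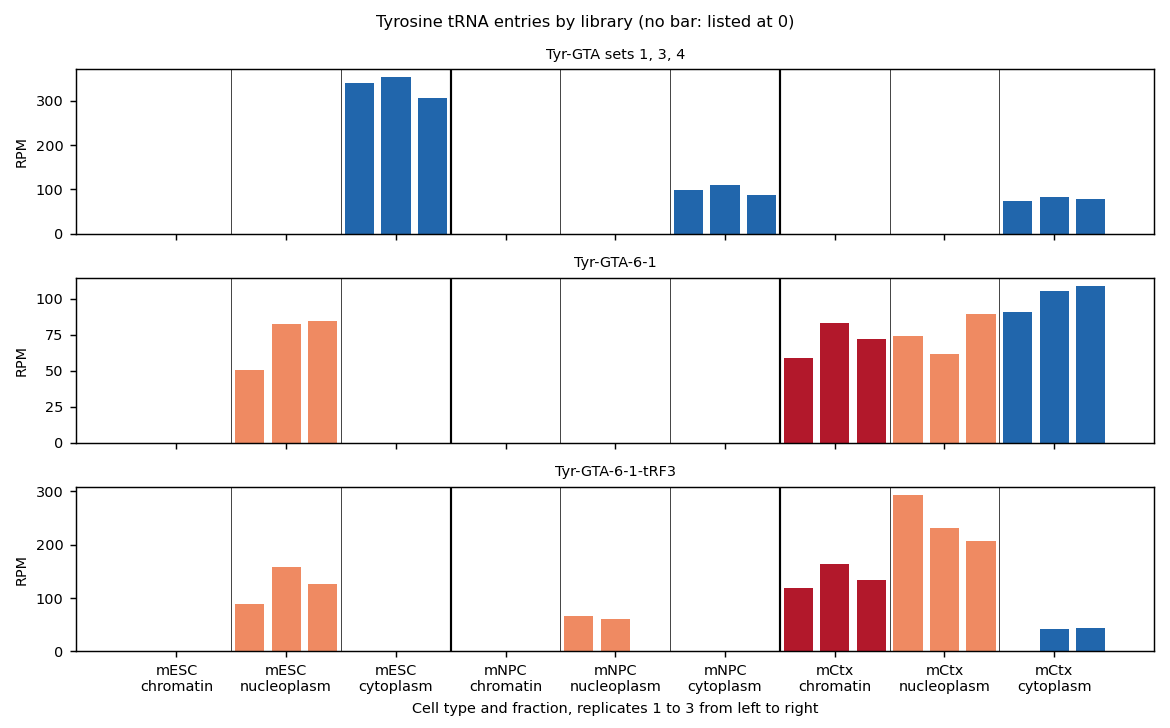
RPM of the 5 tyrosine copies of sets 1, 3 and 4 together (top), of tRNA-Tyr-GTA-6-1 (middle) and of its 3′ fragment entry (bottom) in the 27 libraries, coloured by fraction; no bar means listed at 0. The top panel has bars only in the 9 cytoplasm libraries, and the middle panel in mESC nucleoplasm and all mCtx libraries.

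Cysteine reads were mostly in mESC. tRNA-Cys-GCA, which reads UGC and UGU, had 641, 1404 and 676 RPM in chromatin, 547, 1429 and 957 RPM in nucleoplasm and 323, 769 and 671 RPM in cytoplasm of mESC, and was listed at 0 in all 9 mNPC libraries. It was lower in mNPC in chromatin (adjusted p = 1.08e-05), nucleoplasm (adjusted p = 9.01e-06) and cytoplasm (adjusted p = 2.45e-05). Its 8 copies could together hide up to 473 RPM behind a 0 in mNPC chromatin, 272 RPM in nucleoplasm and 325 RPM in cytoplasm, and the mESC libraries lay above the limit of their fraction except cytoplasm replicate 1, at 323 RPM. The mESC means were 907 ± 431 RPM in chromatin, 978 ± 442 RPM in nucleoplasm and 588 ± 235 RPM in cytoplasm (SD, n = 3).

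In mCtx, tRNA-Cys-GCA had 0, 257 and 236 RPM in cytoplasm and was at 0 in chromatin, which was called lower (adjusted p = 0.00615), and the cytoplasm was called higher than in mNPC (adjusted p = 0.0076). All 3 mCtx cytoplasm values lie under the 325 RPM that a 0 could hide in mNPC cytoplasm. The chromatin call was lost without mCtx cytoplasm replicate 2 or 3, with adjusted p between 0.0526 and 0.0532, and the cytoplasm call without mCtx cytoplasm replicate 2 or 3, with adjusted p between 0.0649 and 0.0664. Within mESC it missed the threshold in chromatin (adjusted p = 0.915) and nucleoplasm (1) against cytoplasm. Copy tRNA-Cys-GCA-1-2, at chr17:71599271-71599342 on the plus strand, had the highest mean, and 7 of the 8 copies differed by a median factor of 1.05 in the 12 libraries that listed them all.

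Proline reads were listed in different fractions in the different cell types. tRNA-Pro-TGG, which reads CCA and related proline codons, was listed in chromatin alone in mESC, with 0, 278 and 256 RPM, and in cytoplasm alone in mNPC and mCtx, with 269, 189 and 227 RPM and 31.7, 77.1 and 122 RPM. Chromatin was higher than cytoplasm in mESC (adjusted p = 0.00103), with 1 of 3 chromatin libraries at 0, and lower in mNPC (adjusted p = 3.63e-05) and mCtx (adjusted p = 0.000558). The difference of these differences between mNPC and mESC passed its own test (adjusted p = 9.35e-06). Nucleoplasm was at 0 in all 9 libraries and lower than cytoplasm in mNPC (adjusted p = 0.000118) and mCtx (adjusted p = 0.00133). The mCtx calls were lost with every value under 59.1 RPM raised to that value, and a 0 over 5 copies could hide up to 295.3 RPM in mNPC chromatin, more than its cytoplasm held, and up to 212 RPM in mESC cytoplasm. In turn mNPC was lower than mESC in chromatin (adjusted p = 0.00138) and higher in cytoplasm (adjusted p = 2.45e-05).

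The mESC chromatin reads of tRNA-Pro-TGG were on 2 of its 5 copies, tRNA-Pro-TGG-2-4 with 0, 174 and 174 RPM and tRNA-Pro-TGG-2-3 with 0, 104 and 82.2 RPM. In mNPC cytoplasm tRNA-Pro-TGG-2-4 had 66.9, 48.0 and 56.9 RPM and tRNA-Pro-TGG-2-1 had 67.5, 47.5 and 56.2 RPM, so there the copies of set 2 had like values. tRNA-Pro-TGG-2-4, the copy with the highest mean, lies at chr17:23546476-23546547 on the minus strand, intergenic. tRNA-Pro-CGG was listed only in mCtx cytoplasm, with 0, 31.4 and 40.2 RPM, and was too rarely listed to test.

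The threonine tRNA entries were listed in mESC nuclear fractions only, unlike the threonine fragments described next. tRNA-Thr-AGT, which reads ACU and other threonine codons once its first anticodon base is inosine, had 57.4, 289 and 551 RPM in mESC chromatin, 0, 38.0 and 59.3 RPM in mESC nucleoplasm, and 0 in mESC cytoplasm and in all mNPC and mCtx libraries. It was higher in mESC chromatin than in cytoplasm (adjusted p = 8.81e-07), and higher in mESC nucleoplasm (adjusted p = 0.00814), a call lost without mESC nucleoplasm replicate 3, with adjusted p = 0.0605. mNPC was lower than mESC in chromatin (adjusted p = 9.56e-07) and nucleoplasm (adjusted p = 0.0029). Both nucleoplasm calls were lost when every value under 59.1 RPM was raised to that value. With 2 copies, a 0 could hide up to 84.9 RPM in mESC cytoplasm and 118 RPM in mNPC chromatin. The 57.4 RPM of mESC chromatin replicate 1 lies under both limits. The reads came mostly from tRNA-Thr-AGT-6-1, at chr13:21249194-21249267 on the minus strand, intergenic.

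The table also held entries for fragments, and 10 of its 34 named one of these 9 amino acids: 6 threonine, 2 serine, 1 cysteine and 1 tyrosine. tRNA-Thr-AGT-6-1-tRF5, a piece from the 5′ side of the threonine gene just described, had 2357, 4730.2 and 8847 RPM in mESC chromatin, against 150.2, 743 and 1171 RPM in mESC cytoplasm (log2 difference 3.18, SE 0.84, adjusted p = 0.00292). It had 110.4, 125.9 and 118 RPM in mNPC chromatin and was at 0 in mNPC cytoplasm (adjusted p = 9.67e-07). In mCtx it had 213, 248 and 186 RPM in chromatin, against 0, 17.4 and 0 RPM in cytoplasm (adjusted p = 2.47e-06). The fragment was thus found in the chromatin of all 3 cell types, with no overlap with cytoplasm, while the tRNA entry of the same gene was listed in mESC alone. That entry had only 57.4, 289 and 482 RPM in mESC chromatin. In the same proportion to its fragment it would fall under the lowest listed values elsewhere. These were 32.5 to 59.1 RPM in mNPC chromatin and 19.4 to 25.1 RPM in mCtx chromatin, so a difference between fragment and tRNA is not read from the 0.

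Of the 8 fragment entries tested, those higher in chromatin than in cytoplasm numbered 5 in mESC, 1 in mNPC and 3 in mCtx. Of all 851 entries, 212 were higher in chromatin in mESC, 164 in mNPC and 172 in mCtx. In either direction, 54.4% of all entries were called in mESC, 38.8% in mNPC and 44.1% in mCtx. The cysteine fragment tRNA-Cys-GCA-3-1-tRF3 had 71.8, 262 and 296 RPM in mESC chromatin, against 0, 0 and 40.0 RPM in mESC cytoplasm (adjusted p = 1.66e-05), and was at 0 in all mNPC and mCtx libraries. The tyrosine fragment tRNA-Tyr-GTA-6-1-tRF3 had 293.1, 232 and 207 RPM in mCtx nucleoplasm, against 0, 41.9 and 43.2 RPM in mCtx cytoplasm (adjusted p = 0.0141). It was also higher in mESC nucleoplasm, with 88.4, 159 and 125.9 RPM against 0 in mESC cytoplasm (adjusted p = 0.000276). In mCtx chromatin it had 118, 164 and 134 RPM. In mNPC nucleoplasm the fragment had 65.8, 61.2 and 0 RPM, while the tRNA entry of the same gene was at 0 in all mNPC libraries.

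tRNA-SeC-TCA, the tRNA that inserts selenocysteine at recoded UGA codons, has a single copy at chr7:19301244-19301340 on the plus strand, intergenic and 97 nt long. It was listed in all 9 mCtx libraries, with 86.6, 61.0 and 37.7 RPM in chromatin, 64.0, 56.5 and 69.3 RPM in nucleoplasm and 56.2, 72.0 and 68.9 RPM in cytoplasm, and missed the threshold in mCtx chromatin (adjusted p = 1) and nucleoplasm (1) against cytoplasm. In mESC it had 41.8, 100.4 and 89.2 RPM in nucleoplasm, 0 in chromatin, and 108, 0 and 0 RPM in cytoplasm. In mNPC it was above 0 in 1 nucleoplasm and 1 cytoplasm library, at 33.2 and 48.0 RPM. mCtx was higher than mNPC in chromatin, where mNPC was at 0 (adjusted p = 0.00585), and in nucleoplasm (adjusted p = 0.0371), and mNPC was lower than mESC in nucleoplasm (adjusted p = 0.0221).

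The nucleoplasm calls for tRNA-SeC-TCA were not firm. That of mCtx against mNPC was lost without mNPC nucleoplasm replicate 1 or 2 or mCtx nucleoplasm replicate 1, 2 or 3, with adjusted p between 0.0725 and 0.159. That of mNPC against mESC was lost without mESC nucleoplasm replicate 2 or 3 or mNPC nucleoplasm replicate 1 or 2, with adjusted p between 0.0564 and 0.104, and as a share of tRNA reads (adjusted p = 0.114). All 3 calls were lost with every value under 59.1 RPM raised to that value. The lowest listed value in mNPC chromatin was between 32.5 and 59.1 RPM. tRNA-Trp-CCA, the tryptophan tRNA, was listed in 1 mESC chromatin library at 52.6 RPM and 1 mCtx cytoplasm library at 44.7 RPM.

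The last comparison set the chromatin to cytoplasm differences of the cell types against each other. Between mNPC and mESC, 8 of 11 members passed (3 higher, 5 lower), where 31.8% (20.6% higher, 11.2% lower) of all features passed, and the median of the 11 was -0.62, beside 0.10 over all features. Between mCtx and mNPC 5 passed (2 higher, 3 lower), where 16.7% (7.27% higher, 9.47% lower) of features passed, with medians of -2.10 and 0. With values raised to 59.1 RPM the medians of the 11 were -0.62 and 0. For tRNA-Ser-AGA, tRNA-Ser-TGA, tRNA-Thr-AGT, tRNA-Tyr-GTA and tRNA-Ser-GCT in mNPC against mESC, and tRNA-Ser-AGA and tRNA-Ser-GCT in mCtx against mNPC, a fraction was at 0 in both cell types, so these calls restate 1 of the differences given above and measure no change of fraction. Both glycine anticodons were in each count, lower each time, so that glycine reads lay further toward cytoplasm in mNPC than in mESC and in mCtx than in mNPC, though as a share of tRNA reads the difference of mCtx from mNPC was not called for either. Scaling to the tRNA total moved the median feature by 0.86 in the mNPC to mESC comparison and by 0.60 in the mCtx to mNPC comparison. The mCtx to mNPC count was 3 without mNPC chromatin replicate 1, 2 or 3, mNPC cytoplasm replicate 1, 2 or 3, mCtx chromatin replicate 1, 2 or 3, or mCtx cytoplasm replicate 3. The calls lost were those of tRNA-Ser-AGA (adjusted p = 0.0468) and tRNA-Ser-GCT (adjusted p = 0.0333), each in 11 of the 12 refits that leave out a library; tRNA-Ser-AGA kept its call only without mCtx cytoplasm replicate 1, and tRNA-Ser-GCT only without mCtx cytoplasm replicate 2. Between mNPC and mESC the call of tRNA-Ser-GCT (adjusted p = 0.0224) was lost without mESC cytoplasm replicate 2 or 3, with adjusted p between 0.0667 and 0.0672. For tRNA-Tyr-GTA, called higher in mCtx against mNPC, the sign turned with every value under 59.1 RPM raised to that value (-0.62, adjusted p = 0.0316).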

How the data were processed

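The deposited table gives RPM, which the authors set to a total of 1000000 reads a library, for 1013 named entries in 27 libraries. Per the labels' protocols, TruSeq small RNA libraries of 120 to 160 bp were made from rRNA-depleted RNA under 200 nt and read as single ends of 100 bp. Aligner, build and read numbers: not given in the sources used here. Of 288 entries with Ensembl identifiers, 285 match GRCm38, whose coordinates and annotation (GENCODE M21, RefSeq) were used. The depth is unknown, so no counting interval is given. Copies were summed by anticodon, features reaching 1 RPM in 3 or more libraries were kept, and log2(RPM + 1) was fitted with limma 3.58.1 in R 4.3.3, with 9 groups, 14 contrasts and 18 residual degrees of freedom, and Benjamini-Hochberg adjustment over 729 features, or over 851 where single entries were tested. Differences against a group listed at 0 depend on the pseudocount, and may be overstated because values under the lowest listed value appear as 0. For tRNA-Pro-TGG in mCtx chromatin against cytoplasm the log2 difference was -6.09. It was -0.47 with every value under 59.1 RPM raised to that value. The fit was tested on simulated data with the same spread in all groups. In the real data all 9 groups shared 1 estimate of spread for each feature. A group at 0 throughout adds no spread, so p-values of anticodons at 0 in most groups can be too small. Each amino acid's anticodon with the highest mean, its copy with the highest mean, copies called in opposite directions, and in each contrast up to 4 called anticodons a direction were named. The alternatives were pseudocount 10, other filters and scalings, a common floor, fragments added, entries on their own, a replicate block and each library left out. Members and lists were chosen with earlier results of these data known.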

Additional observations from a re-analysis of the deposited data

Results flagged for a closer look

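The interaction of fraction (chromatin against cytoplasm) and cell type was called for 8 anticodons in mNPC against mESC and 5 in mCtx against mNPC, in limma with adjustment over 729 features. Of mNPC against mESC, the interaction (log2 difference of differences) was -1.85 for tRNA-Gly-GCC (adjusted p = 0.00159), -3.17 for tRNA-Gly-CCC (adjusted p = 0.000161), -13.20 for tRNA-Pro-TGG (adjusted p = 9.35e-06), -7.72 for tRNA-Thr-AGT (adjusted p = 0.000195) and -5.78 for tRNA-Ser-GCT (adjusted p = 0.0224). It was above 0 for tRNA-Ser-AGA at 8.82 (adjusted p = 8.88e-05), tRNA-Ser-TGA at 6.97 (adjusted p = 3.43e-05) and tRNA-Tyr-GTA at 1.76 (adjusted p = 0.000245). Of mCtx against mNPC, it was -2.10 for tRNA-Gly-GCC (adjusted p = 0.000969), -2.50 for tRNA-Gly-CCC (adjusted p = 0.00291), -4.37 for tRNA-Ser-AGA (adjusted p = 0.0468), 5.29 for tRNA-Tyr-GTA (adjusted p = 3.94e-11) and 6.08 for tRNA-Ser-GCT (adjusted p = 0.0333). Except for the glycine anticodons, each of these has a group listed at 0 in all its libraries, so its size depends on the pseudocount and is no measure of fold. In mNPC against mESC the calls of both serine anticodons AGA and TGA, of threonine, of tyrosine and of tRNA-Ser-GCT have a fraction at 0 in both cell types and repeat a single difference between fractions or cell types, as do those of tRNA-Ser-AGA and tRNA-Ser-GCT in mCtx against mNPC; no change of fraction could be measured for them. In mCtx against mNPC, the sign for tRNA-Tyr-GTA turned with the common floor (-0.62, adjusted p = 0.0316), the calls for tRNA-Ser-AGA and tRNA-Ser-GCT were lost in 11 of 12 refits without a library, and those for glycine were lost scaled to the tRNA total (adjusted p = 0.857 for tRNA-Gly-GCC and 0.485 for tRNA-Gly-CCC).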

How the results depend on the processing

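Of the 80 member calls, all 80 kept their direction and threshold with pseudocount 10 and with no filter on low values, 78 with median-ratio scaling, 63 scaled to the tRNA total, 60 with the common floor of 59.1 RPM, 59 with the top copy in place of the anticodon's sum and 67 with fragments added. The count of called anticodons moved by over 1.5 times as follows. With the common floor it was 2 in chromatin of mCtx against mNPC, 5 in mCtx chromatin against cytoplasm, 2 in nucleoplasm of mCtx against mNPC and 3 in nucleoplasm of mNPC against mESC. With the top copy it was 2 in chromatin of mCtx against mNPC, 2 and 5 in the mCtx to mNPC and the mNPC to mESC comparison of chromatin to cytoplasm differences, 5 in mCtx chromatin and 3 in mCtx nucleoplasm. It was 2 in mESC nucleoplasm with fragments added, and 5 in cytoplasm of mNPC against mESC scaled to the tRNA total. A filter at 14 libraries left 5 anticodons to test and counts of 2 in chromatin, 4 in nucleoplasm and 3 in cytoplasm of mNPC against mESC, 3 in cytoplasm of mCtx against mNPC, 4, 2 and 4 in mESC, mNPC and mCtx chromatin, 1 and 3 in mESC and mCtx nucleoplasm, and 3 in each comparison of differences; fewer anticodons tested is part of that.

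Direction turned when scaled to the tRNA total for tRNA-Tyr-GTA in mCtx chromatin (1.13), mCtx nucleoplasm (1.05) and cytoplasm of mCtx against mNPC (-0.59), tRNA-Gly-GCC in mCtx nucleoplasm (0.69) and nucleoplasm of mNPC against mESC (1.07), and tRNA-Gly-CCC in cytoplasm of mNPC against mESC (0.22). With the top copy it turned for tRNA-Tyr-GTA in mESC nucleoplasm (6.16) and the mCtx to mNPC difference of differences (-0.52). It also turned for tRNA-Gly-GCC in chromatin of mCtx against mNPC (-0.013). For tRNA-Gly-CCC it turned in nucleoplasm of mCtx against mNPC (0.97), with 1 mNPC library at 0. With the common floor it turned for the tyrosine difference of differences (-0.62). With fragments added it turned for tRNA-Tyr-GTA in mCtx chromatin (0.016) and nucleoplasm (0.62), tRNA-Ser-GCT in nucleoplasm of mNPC against mESC (-1.89) and tRNA-Thr-AGT in the mNPC to mESC difference of differences (3.59). The cause was not tested.

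Leaving out 1 library gave counts of 8 to 8, 3 to 4 and 7 to 8 in mESC, mNPC and mCtx chromatin, 3 to 5, 3 to 4 and 6 to 7 in nucleoplasm, 5 to 6, 4 to 6 and 7 to 8 in chromatin, nucleoplasm and cytoplasm of mNPC against mESC, 3 to 4, 2 to 3 and 5 to 7 in those of mCtx against mNPC, and 7 to 8 and 3 to 6 in the mNPC to mESC and mCtx to mNPC differences of differences.

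With a replicate block, the count in nucleoplasm of mCtx against mNPC was 2, as tRNA-Ser-GCT (adjusted p = 0.0509) and tRNA-SeC-TCA (adjusted p = 0.0515) were lost, and tRNA-Ser-AGA was lost in the mCtx to mNPC difference of differences (adjusted p = 0.0560); the other 77 calls stood. Libraries of the same number correlated at r between -0.112 and 0.185 within a cell type, over 0.1 in 4 of 18 pairs, and between -0.0621 and 0.110 across cell types, so pairing by number was not shown.

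What a value under the lowest listed value of a library was, between 5.16 and 59.1 RPM, is not known. With the common floor 19 calls were lost and 1 turned, as counted above. The floor was set on sums over copies, and a 0 over several copies can hide more. For tRNA-Cys-GCA in mNPC chromatin it can hide up to 473 RPM. The floor thus cannot show that the calls it kept are free of this limit.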
